A study of Arabidopsis with 6 samples.

Results

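Transcripts of cytochrome P450 enzymes that make indole-3-acetaldoxime, the branch point of indole defence metabolism, or act on it or further down its branches, were followed in dark-grown Arabidopsis brought into the light, in wild type (WT) and in a line with RNA interference against PCD8 (RNAi-21). The 6 genes were chosen by locus: CYP71A12 (AT2G30750), CYP71A13 (AT2G30770), CYP79B2 (AT4G39950), CYP79B3 (AT2G22330), CYP83B1 (AT4G31500) and PAD3 (AT3G26830, also called CYP71B15). Of these, 5 are among the 19763 genes in the table of each library. CYP71A13 was not analysed here. The set was built around CYP71A12, which stood out for its difference between RNAi-21 and WT after 0.5 h and 2 h of light. All genotype values of the members are therefore given as a description, without a test.

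Both genotypes were kept in the dark for 4 days and were then taken without light (0 h) or after 0.5 h or 2 h in the light. That gives 6 groups of 1 library each, so no group has a replicate error. RNAi-21 is a single line, and neither the promoter of its construct nor a pooling of seedlings is given in the sources used here. The level of PCD8 itself was not analysed here, so the RNAi-21 label has no check from its target. No library was kept in the dark beyond 0 h, so light and elapsed time cannot be told apart. Levels are taken here as FPKM, although no header names the unit. FPKM are fragments scaled by transcript length and library size, which lets genes be compared per length. The sequencing depth is unknown. Library sums ranged from 757504 to 891009. Differences are of log2(FPKM + 1), where low genes change less than their ratio would show, and a difference of at least 1 is called 2-fold. All 5 listed members passed the filter of 1 FPKM in any library, as did 18441 genes in all. The tissue is labelled leaf, yet the Casparian strip gene CASP1, a root marker, had an FPKM of 371 to 491. All 10 root markers examined were above 0 in every library, which is a low bar, and the weakest, COBL9, lay between 1.65 and 2.51. The libraries therefore hold root-expressed transcripts as well.

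Arabidopsis makes several families of defence compounds from tryptophan. CYP79B2 and CYP79B3 convert tryptophan to indole-3-acetaldoxime. CYP83B1 commits the aldoxime to indole glucosinolates, thioglucosides that are toxic to insects and microbes once hydrolysed. CYP71A12 and its tandem relative CYP71A13 dehydrate the same aldoxime to indole-3-acetonitrile, which leads to camalexin, the main phytoalexin of the species, and to indole carbonyl nitriles and indole carboxylic acids. PAD3 catalyses the last steps to camalexin. The aldoxime can also feed auxin synthesis.

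The aldoxime-forming pair was somewhat higher in RNAi-21 at every light time, by less than 2-fold. CYP79B2 had an FPKM of 12.04, 7.04 and 8.26 in WT at 0, 0.5 and 2 h, and of 14.2, 11.5 and 10.4 in RNAi-21. Every RNAi-21 library was above the WT library of the same time, and the lowest of all 6 was WT at 0.5 h. The differences were 0.22, 0.64 and 0.31 at 0, 0.5 and 2 h. CYP79B3 had 17.5, 15.1 and 9.03 in WT at the same times, and 21.6, 21.8 and 11.1 in RNAi-21. Here the 2 h libraries of both genotypes were the lowest. The genotype differences of CYP79B3 were 0.29, 0.50 and 0.27. The ratio of CYP79B3 to CYP79B2 within a library, in which library scaling cancels, was 1.46, 2.15 and 1.09 in WT and 1.52, 1.89 and 1.06 in RNAi-21, so it was highest at 0.5 h and lowest at 2 h in each genotype.

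CYP83B1, the entry to indole glucosinolates, was the most abundant member in all 6 libraries. Its FPKM was 78.4, 70.0 and 47.4 in WT and 84.1, 80.4 and 57.9 in RNAi-21. RNAi-21 was higher at each time, but by 0.10, 0.20 and 0.28 only, which are small next to the differences of -0.55 in WT and -0.47 in RNAi-21 between 0.5 h and 2 h. Over the 6 libraries CYP83B1 followed CYP79B3 closely, with a Pearson's r of 0.98. The other pairs of members had r between 0.53 and 0.84, all over the same libraries.

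CYP71A12 had the largest difference of the listed members at every time. Its FPKM was 6.85, 2.42 and 2.14 in WT at 0, 0.5 and 2 h, and 11.8, 15.7 and 10.2 in RNAi-21. The lowest RNAi-21 library was above the highest WT library, in the contrast that picked this gene. The share of all genes separated in this way was not counted. In WT the level after light was 0.354 times the dark level at 0.5 h and 0.312 times at 2 h, whereas in RNAi-21 it was 1.33 and 0.863 times. The RNAi-21 level was 1.72 times that of WT in the dark, 6.49 times at 0.5 h and 4.76 times at 2 h, which on the log2 scale is 0.71, 2.29 and 1.83. In a bulk library, fewer cells that express the gene and less transcript per cell cannot be told apart.

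**Figure D1:**
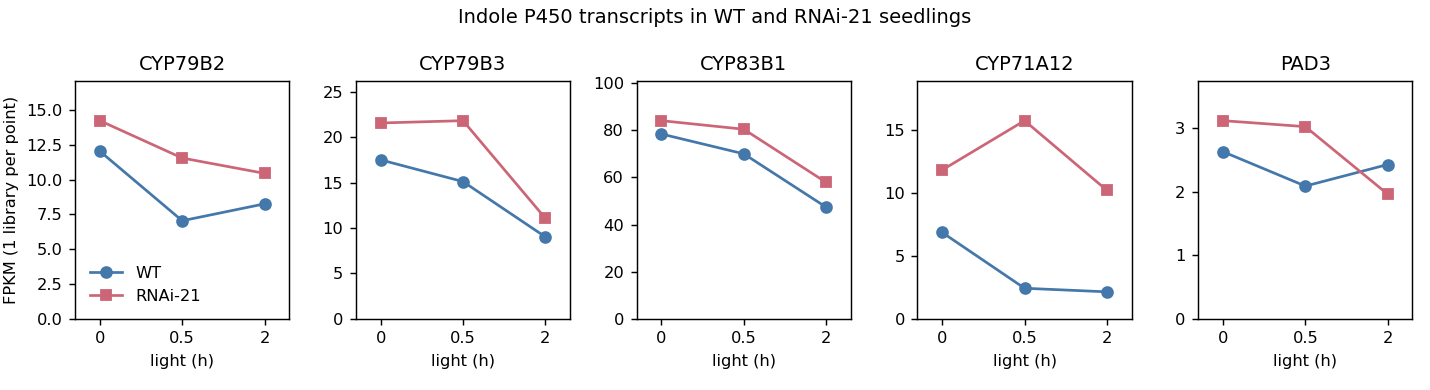
FPKM of the 5 listed members (vertical axis, a separate scale from 0 for each gene) against time in light (0, 0.5 and 2 h, evenly spaced), with 1 library per point; blue circles are WT and red squares are RNAi-21. CYP71A12 is the member whose genotypes lie farthest apart in the light, at 2.42 in WT and 15.7 in RNAi-21 at 0.5 h, while CYP83B1 ran nearly in parallel.

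The order of the members within a library was the same but for the place of CYP71A12. In the dark both genotypes had the order CYP83B1, CYP79B3, CYP79B2, CYP71A12 and PAD3. In RNAi-21 at 0.5 h CYP71A12 stood at rank 3, above CYP79B2, and in WT at 2 h it stood at rank 5, below PAD3. Without replicates these close neighbours, such as 2.14 for CYP71A12 and 2.43 for PAD3 in WT at 2 h, cannot be ordered beyond error. Relative to CYP83B1 in the same library, CYP71A12 made 8.74%, 3.46% and 4.52% in the WT libraries and 14.0%, 19.5% and 17.6% in those of RNAi-21. Relative to CYP79B2 and CYP79B3 together it made 23.2%, 10.9% and 12.4% in the WT libraries and 33.0%, 47.1% and 47.3% in the others. Library scaling cancels in these shares too, and each was higher in RNAi-21 at the same time.

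PAD3 was the least abundant member in all libraries but WT at 2 h, and showed no such split. Its FPKM was 2.63, 2.09 and 2.43 in WT and 3.12, 3.03 and 1.96 in RNAi-21. It was higher in RNAi-21 by 0.18 and 0.38 at 0 and 0.5 h and differed by -0.21 at 2 h, so the genotypes overlap. In RNAi-21 at 2 h, where CYP71A12 was at 10.2, PAD3 had its lowest level of the 6 libraries.

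Counted over the set, no member was 2-fold higher in RNAi-21 at 0 h, where 0.168% of all genes were. At 0.5 h 1 of 5 was, CYP71A12, against 0.841% of all genes, and at 2 h again 1 of 5, CYP71A12, against 0.575%. No member was 2-fold lower at any time, where 0.396%, 0.428% and 0.222% of all genes were. The median difference of the 5 members was 0.22, 0.50 and 0.28, and that of all genes was -0.01, -0.03 and -0.02. Nothing is read from these counts, because this contrast picked the leading gene.

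**Figure D2:**
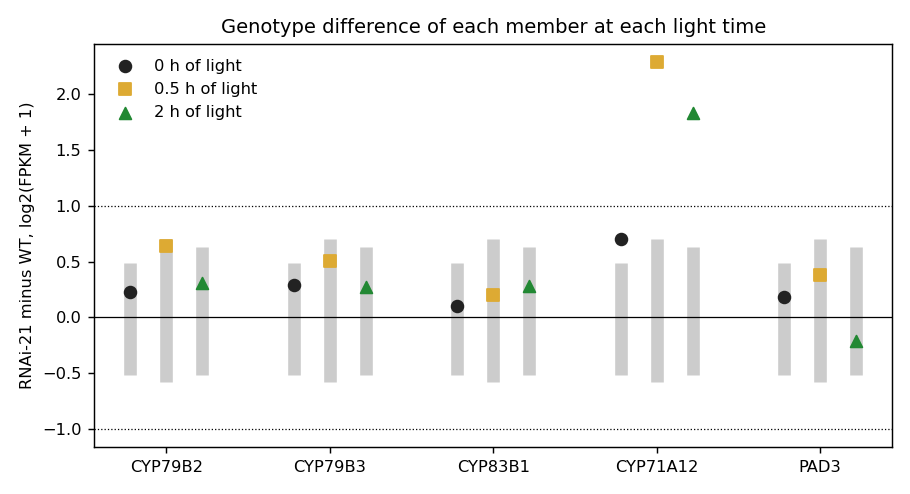
RNAi-21 minus WT on the log2(FPKM + 1) scale (vertical axis) for each listed member at 0 h (black circles), 0.5 h (yellow squares) and 2 h (green triangles), 1 library against 1. Grey bars span the central 95% of all 18441 genes at that time and dotted lines mark 2-fold. CYP71A12 lies above the bar at each time, at 0.71, 2.29 and 1.83, and the other members lie within the bars.

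The 0.5 h pair of libraries differed in more than these genes. The 9 listed seed storage markers summed to an FPKM of 222 in WT at 0.5 h and to between 6.94 and 52.5 in the other 5 libraries, with none at 0. The 7 leaf mesophyll markers summed to 4514 in RNAi-21 at 0.5 h and to between 6374 and 8092 in the others, and all 7 were lower in RNAi-21 at that time, with a median of -0.62. The part of either in the 0.5 h values was not tested. Of the leaf markers, 2 were themselves 2-fold higher at 2 h than in the dark in each genotype. RCA differed by 2.23 in WT and 2.42 in RNAi-21, and LHCA4 by 1.45 and 1.52. The leaf marker values therefore do not follow leaf content alone. At 2 h, where CYP71A12 differed by 1.83, the leaf markers had a median of 0.11, but the seed storage markers summed to 7.29 in WT and 52.5 in RNAi-21, with 8 of 9 above 0, 4 of them 2-fold higher and a median of 0.94. Their part in the 2 h value was not tested either. Of the 10 root markers, 5, 3 and 3 were above 0 in RNAi-21 minus WT at 0, 0.5 and 2 h, with medians of 0.04, -0.13 and -0.15. Without PYK10, the abundant beta-glucosidase gene of root and seedling ER bodies, their sum lay between 756 and 804 in the WT libraries and between 674 and 790 in the others. CASP1 and RCI3 made most of that sum, at 491 and 245 of 804 in WT at 0 h, so it says little of the weaker markers. PYK10 itself was higher in RNAi-21 at each time, by 0.59, 0.71 and 0.48. With PYK10 the sum was 4773, 4235 and 5692 in WT and 6784, 6451 and 7563 in RNAi-21 at 0, 0.5 and 2 h.

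How light acted on the members was asked separately, since the light contrast was not used to choose them. A limma model with 1 term for genotype and 1 for each light time was fitted to all 18441 genes. No member passed at 0.5 h, when 1.24% of all genes rose and 1.47% fell, and 1 member, CYP79B2, had an unadjusted p under 0.05. At 2 h 3 of 5 members fell and none rose, while 17.1% of all genes rose and 15.8% fell. CYP79B3 fell by 0.89 ± 0.12 (SE, adjusted p = 0.0014, limma) and CYP83B1 by 0.62 ± 0.11 (adjusted p = 0.0043, limma), each lower in 2 of 2 genotypes. CYP79B2 fell by 0.45 ± 0.14 (adjusted p = 0.047, limma), also in 2 of 2 genotypes. PAD3 had an effect of -0.28 ± 0.18 and CYP71A12 one of -0.76 ± 0.33 at 2 h, and neither passed (adjusted p of 0.28 and 0.13, limma). With 6 libraries and 4 terms, 2 degrees of freedom were left for error, which here means how unlike the light effects of the genotypes were. The call of CYP79B2 was lost without WT at 0 h (adjusted p = 0.24), WT at 2 h (0.090), RNAi-21 at 0 h (0.052) or RNAi-21 at 2 h (0.18), whereas CYP71A12 passed at 2 h without RNAi-21 at 0 h (0.00078), WT at 0.5 h (0.0011) or RNAi-21 at 0.5 h (0.0015), all in limma fits that keep 5 libraries. The 2 h effect of CYP71A12 ran from -1.44 without RNAi-21 at 0 h to -0.08 without WT at 0 h (adjusted p = 0.81, limma), so its size rests on the dark libraries.

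Within each genotype, CYP71A12 in WT was the only member that differed from the dark by 2-fold. It differed by -1.20 at 0.5 h, where 1.10% of all genes were 2-fold lower, and by -1.32 at 2 h, where 4.56% were. The 0.5 h and 2 h libraries are part of the contrast that picked CYP71A12. Nothing is therefore read from its place beside these shares. In RNAi-21 no member was 2-fold lower at 0.5 h or at 2 h, against 0.906% and 4.37% of all genes, and CYP71A12 differed from the dark by 0.38 and -0.19. CYP79B3 came nearest, at -0.88 in WT and -0.90 in RNAi-21 at 2 h, nearly equal in the genotypes. The response of RNAi-21 minus that of WT was 1.58 at 0.5 h and 1.13 at 2 h for CYP71A12, where 0.927% and 0.976% of all genes were at least 2-fold higher. For the other 4 members it lay between 0.10 and 0.42 at 0.5 h and between -0.39 and 0.18 at 2 h. These differences of responses rest on 4 libraries each, were not tested, and share their libraries with the genotype differences.

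Partners of CYP71A12 in the nitrile branch were examined next, in a list of 11 genes for camalexin, indole carbonyl nitriles and their export. Of the 8 tested, 3 were 2-fold higher in RNAi-21 at 0.5 h, when 0.841% of all genes were, and none at 0 or 2 h, and none was 2-fold lower. One of the 3, CYP82C2, passed the filter through the RNAi-21 0.5 h library alone, so its entry into that count depends on being high there. FOX1 (AT1G26380), an oxidase that acts after CYP71A12 on the way to indole carbonyl nitriles, had an FPKM of 2.37, 0.71 and 1.91 in WT and 3.09, 4.54 and 4.32 in RNAi-21. Every RNAi-21 library was above every WT library, a split that was not counted over all genes. The difference at 0.5 h was 1.70. CYP82C2 (AT4G31970), which hydroxylates the carbonyl nitrile, was weak, at 0.37, 0.07 and 0.16 in WT and 0.87, 1.42 and 0.84 in RNAi-21. Its difference was 1.18 at 0.5 h, the time whose RNAi-21 library took it past the filter, so nothing is read from it. GSTF6 (AT1G02930), a glutathione transferase of camalexin synthesis, stood at 69.9, 47.4 and 69.4 in WT and 80.2, 119 and 131 in RNAi-21, a difference of 1.32 at 0.5 h and 0.91 at 2 h. GSTF6 has a close copy in GSTF7, so its level is uncertain. CYP71A12, FOX1 and GSTF6 each had a lower level in WT at 0.5 h than at 0 h and a higher one in RNAi-21. So did CYP82C2, and GSTU4 and AAO1, which were within 2-fold between the genotypes, whereas CYP71B6, GGP3 and PEN3 did not. AAO1 differed from the dark by only 0.03 in RNAi-21. The share of all genes with this pattern was not counted, so nothing is read from it. FOX1 and GSTF6 are named for their 0.5 h genotype difference, which shares those libraries. The other members of the list with the largest differences were the glutathione transferase GSTU4 at 0.66 (0.5 h), the exporter PEN3 at -0.52 (2 h), the peptidase GGP3 at -0.31 (0.5 h) and the aldehyde oxidase AAO1 at -0.27 (0 h). The list's median was 0.14, 0.38 and -0.05 at 0, 0.5 and 2 h, with CYP82C2 included. With a minimum of 5 FPKM, which removes FOX1 and CYP82C2, it was 0.07, 0.02 and -0.13.

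Of 11 genes tested that build and decorate indole glucosinolates, 8, 10 and 11 had a difference above 0 in RNAi-21 minus WT at 0, 0.5 and 2 h, where 48.6%, 45.5% and 47.1% of all genes did. In the dark GSTF9, IGMT1 and IGMT2 were below 0, at -0.11, -0.01 and -0.47. The list's median difference was 0.14, 0.37 and 0.26, and 1 of 11 was 2-fold higher at 0.5 h, against 0.841% of all genes. IGMT2, an indole glucosinolate methyltransferase, was at 5.12, 4.08 and 13.4 in WT and 3.43, 10.3 and 18.8 in RNAi-21. It was the gene past 2-fold, at 1.15 in the 0.5 h pair. CYP81F4, which hydroxylates the indole ring, went from 42.7 in the dark to 299 at 2 h in WT and from 48.4 to 377 in RNAi-21, and differed between the genotypes by 0.81 at 0.5 h. IGMT1, IGMT5 and the peptidase GGP1 differed by 0.74, 0.67 and 0.57 at 0.5 h. IGMT1 and IGMT2 are near-identical neighbours, so their separate values are uncertain. At 2 h of light 3 of the 11 rose over both genotypes and 1 fell, where 17.1% of all genes rose and 15.8% fell. CYP81F4 rose by 2.86 ± 0.16 (adjusted p = 4.37e-05, limma), IGMT2 and GSTF10 rose by 1.69 and 0.54, and IGMT5 fell by 0.81, in the libraries in which CYP79B2, CYP79B3 and CYP83B1 fell.

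Of 11 tryptophan synthesis genes tested, none differed by 2-fold between the genotypes. Their median was 0.02, 0.16 and -0.11, and the largest differences were PAI2 at 0.40 (0 h), PAT1 at 0.32 (0.5 h), PAI3 at -0.30 (0.5 h) and TSA1 at 0.30 (0.5 h), with PAI1 to PAI3 too alike in sequence to separate with certainty. ASB1, the beta subunit of anthranilate synthase, was the only one that changed with light, with an effect of -1.54 ± 0.11 at 2 h (adjusted p = 8.04e-05, limma). Of 5 auxin synthesis genes tested from the indole-3-pyruvate route, none was 2-fold apart between genotypes, and TAR2 was farthest at 0.38 (2 h), followed by YUC3 at 0.28 (0 h). TAA1, the aminotransferase that starts that route, fell by 1.296 ± 0.13 at 2 h (adjusted p = 0.000339, limma), and YUC3 and YUC6 fell by 0.84 and 0.73. Of 6 glucosinolate breakdown genes tested, none was 2-fold apart. The nitrilase gene NIT2 differed by -0.51 at 0.5 h and the myrosinase gene PEN2 by 0.42 in the dark, followed by the myrosinase gene TGG2 at 0.35 (0.5 h) and NIT1 at 0.34 (2 h). With light NIT1 and NIT3 rose by 0.96 and 1.09 at 2 h while PEN2 fell by 0.57. Of 12 genes of the aliphatic glucosinolate branch 2 passed the filter, UGT74C1 and SOT17, with genotype differences between -0.02 and 0.42.

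**Figure D3:**
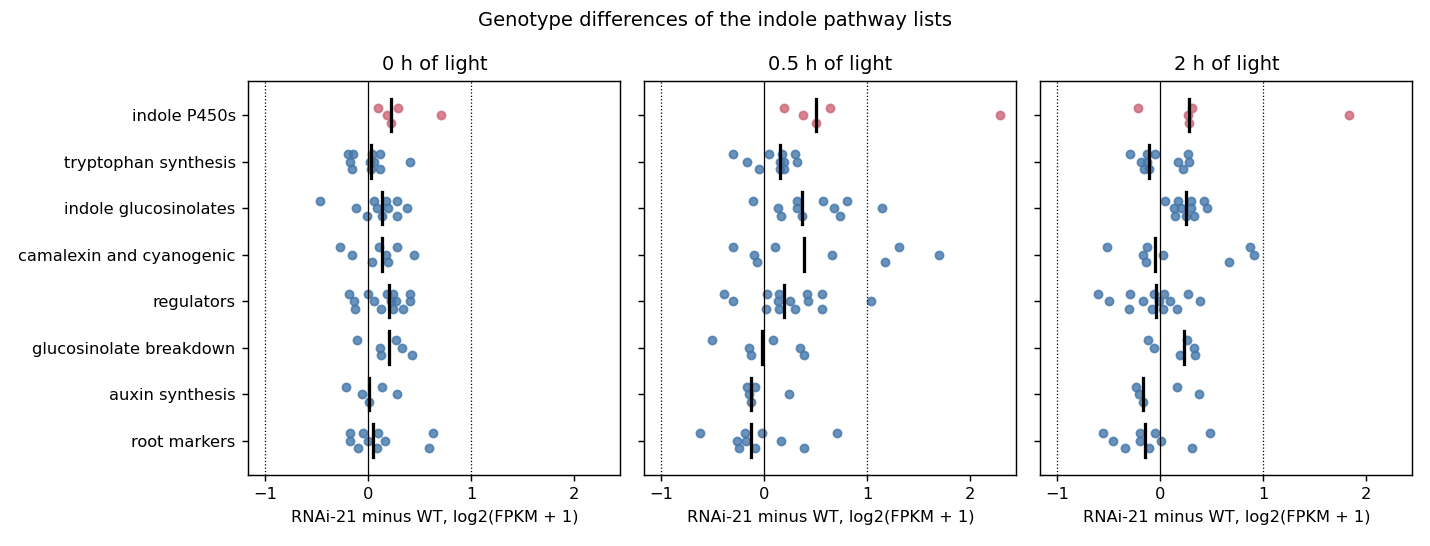
RNAi-21 minus WT on the log2(FPKM + 1) scale (horizontal axis) for each tested gene of the listed groups at 0, 0.5 and 2 h of light, 1 point per gene, with the members in red, other lists in blue and black bars at the list medians; dotted lines mark 2-fold. The points past 2-fold at 0.5 h are CYP71A12, IGMT2, FOX1, GSTF6, CYP82C2 and the regulator gene ANAC042, and at 2 h CYP71A12.

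Among 14 regulators of indole metabolism, 1 differed by 2-fold between the genotypes, at 0.5 h, when 0.841% of all genes were 2-fold higher and 0.428% lower. ANAC042, a NAC factor required for normal camalexin induction, reached at most 1.85 in WT and stood at 2.28, 4.13 and 2.21 in RNAi-21 at 0, 0.5 and 2 h, with a difference of 1.04 at 0.5 h. The MYB factors that activate indole glucosinolate genes were within 2-fold. MYB34 went from 16.4 and 13.8 at 0 and 0.5 h to 38.4 at 2 h in WT, and reached 50.7 at 2 h in RNAi-21, with genotype differences of 0.34, 0.56 and 0.39, and MYB122 differed by 0.56 at 0.5 h. WRKY33, an activator of PAD3 and CYP71A13, was at 19.5, 45.3 and 45.6 in WT and 26.1, 50.3 and 32.0 in RNAi-21, and WRKY40, a repressor in defence, differed by -0.61 at 2 h. Each genotype thus had more WRKY33 transcript after light than before it. Over both genotypes 6 of the 14 rose at 2 h, MYB34, WRKY33, MYC2, MYC4, WRKY18 and WRKY40, and MPK3 and IQD1 fell. Of all genes, 17.1% rose and 15.8% fell at that time. MYB34 rose by 1.21 ± 0.11 (adjusted p = 0.000292, limma) in the same libraries in which CYP79B2, CYP79B3 and CYP83B1 fell. At 0.5 h MYC2 and WRKY40 rose, by 0.76 and 1.05, when 1.24% of all genes rose.

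Most other P450 genes were within 2-fold between the genotypes, as were most of all genes. Of 115 further P450 genes tested, named as such in the gene table, 0, 4 and 1 were 2-fold higher in RNAi-21 at 0, 0.5 and 2 h. Of all genes, 0.168%, 0.841% and 0.575% were. None of the 115 was 2-fold lower, against 0.396%, 0.428% and 0.222% of all genes, and their medians were 0.07, 0.12 and 0.01. The 4 at 0.5 h were CYP708A2, CYP705A12, CYP71A16 and CYP82C2, the last of which passed the filter through that RNAi-21 library alone, and CYP705A12 was the 1 at 2 h. In the CYP71A subfamily 8 other genes were listed, and of the 7 tested all but CYP71A16 were within 2-fold at each time, with differences from -0.29 up to 1.05 for CYP71A16. Around CYP71A12 on the chromosome, 6 of the 10 nearest genes of the gene table were listed and 5 were tested. Their genotype differences ran from -0.35 to 0.69, the latter for AT2G30766 at 2 h, which was listed at 0 in WT and at 0.62 in RNAi-21. The immediate neighbour AT2G30740 was between 63.0 and 77.1 in the WT libraries and between 63.6 and 78.0 in the others. CYP71A12 and CYP71A13 are close copies of each other, so whether reads of CYP71A13 were counted to CYP71A12 was not tested.

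The genes whose levels were most like those of CYP71A12 were taken from 1590 genes with a symbol, an FPKM of at least 5 and a range of at least 1 on the log2 scale. Likeness was Pearson's r of log2(FPKM + 1) over the 6 libraries, as a description. The genes named were picked for following CYP71A12 in these same libraries, so their genotype pattern follows from the choice. The closest were the thalianol hydroxylase gene CYP708A2 and the methyltransferase gene PXMT1, both at r of 0.98. CYP708A2 stood at 44.6, 32.3 and 30.4 in WT and 57.8, 75.6 and 51.7 in RNAi-21, the same order of libraries as CYP71A12 with a smaller range. PXMT1 stood at 45.4, 28.5 and 27.0 in WT and 50.7, 65.9 and 61.2 in RNAi-21. Next came the retroelement SADHU3-2 and the cell surface arabinogalactan protein gene FLA13, both at 0.94, the dehydrogenase gene SDR4 and the P450 gene CYP705A12, both at 0.93, DR4 at 0.91 and the thalianol synthase gene THAS1 at 0.89.

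**Figure D4:**
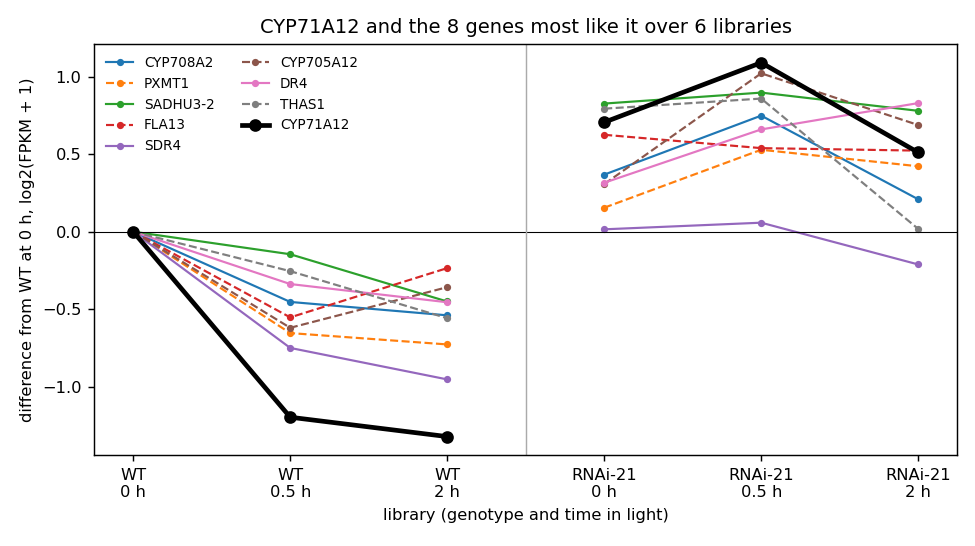
Difference from the WT 0 h library on the log2(FPKM + 1) scale (vertical axis) in each of the 6 libraries (horizontal axis) for CYP71A12 (thick black line) and the 8 genes most like it; lines join the times of 1 genotype. CYP71A12 is at -1.20 and -1.32 in WT after 0.5 and 2 h, below the other 8, and in RNAi-21 every gene but SDR4 lies above the WT dark level at each time. The 8 were picked for their likeness in these libraries, so a shared course follows from the choice.

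The other members resembled different genes. CYP79B2 was most like ATHB13, IBH1 and ARGOS, a growth regulator, at r of 0.92, 0.92 and 0.90. CYP79B3 was most like MIF3, the indole glucosinolate methyltransferase gene IGMT5 and the methionine sulfoxide reductase gene MSRB7, at 0.99, 0.99 and 0.98. CYP83B1 was most like the aquaporin gene PIP2;4, MSRB7 and UMAMIT4, all at 0.99. PAD3 was most like the desaturase gene ADS4, the potassium channel gene KAT3 and PYD4, at 0.89, 0.87 and 0.87. MSRB7 was the 1 gene named for more than 1 member.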

How the data were processed

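RNA was extracted with TRIzol and sequenced as Illumina libraries, per the labels' protocols, 1 library for each of 6 groups. The submitters' processing notes name HISAT and Bowtie2, with no version; the build, annotation and quantifier were not given in the sources used here. Deposited by the authors was 1 normalised value per gene, taken here as FPKM from its range and sums, since no header names a unit; TPM for part of the genes would look alike. Low values showed no whole-read steps, which leaves depth unknown and allows no counting error. Of 19763 identifiers, 19532 matched the RefSeq TAIR10.1 gene table, used for names and gene order only.

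Values became log2(FPKM + 1), and 18441 genes reached the minimum of 1 FPKM in any library. Light effects came from limma 3.58.1 in R 4.3.3 with an effect of light time added to one of genotype, a variance trend, Benjamini-Hochberg adjustment over all genes and a threshold of 0.05, tested on simulated data. It tests the light effect shared by the genotypes, against an error that reflects how unlike their light effects were, not the spread between plants. Tables used Python 3.11.15 with pandas 2.3.3. The members, lists and tests were chosen with earlier results of these data known. In each list the genes 2-fold apart between genotypes and up to 4 others with the largest differences were named; likeness named 8 genes for CYP71A12 and 3 for each other member. The alternatives were another pseudocount (0.1), a minimum of 5 FPKM or none, scaling by median ratios, equalised totals after removing organelle genes, no variance trend, no genotype term, and each library left out. No sequence is shown, because none was used here.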

Additional observations from a re-analysis of the deposited data

Results flagged for a closer look

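For 2 members the light response at 0.5 h pointed in opposite directions in the genotypes, with 1 library per side and no test of the difference. The share of all genes with opposite signs was not counted. The all-gene medians of these responses lay near 0, at 0.01 in WT and -0.02 in RNAi-21, so nothing is read from the count. For CYP71A12 the 0.5 h libraries are also part of the contrast that picked it. CYP71A12 was lower than in the dark in WT, by -1.20, and higher in RNAi-21, by 0.38, so the responses differed by 1.58. The response of CYP79B3 was -0.20 in WT against 0.02 in RNAi-21, a difference of 0.22. With organelle genes left out and totals equalised, the RNAi-21 responses of CYP83B1 and PAD3 at 0.5 h also turned, from -0.06 to 0.0025 and from -0.03 to 0.02, while those in WT stayed below 0, so 4 members then had opposite signs, 3 of them with RNAi-21 responses near 0. The seed storage transcripts in the WT 0.5 h library and the lower leaf markers in the RNAi-21 0.5 h library touch both values, and their part was not tested.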

How the results depend on the processing

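Of 264 member values recomputed under the 5 alternatives that apply to them, 261 stayed on the same side of 2-fold. CYP71A12 in RNAi-21 minus WT ranged from 0.71 to 0.78 at 0 h, 2.29 to 2.65 at 0.5 h and 1.73 to 2.20 at 2 h. With organelle genes left out and totals equalised, CYP79B3 became 2-fold lower in RNAi-21 at 2 h than at 0 h (-1.06) and at 0.5 h (-1.14), so the count of members lower became 1 in each, and the response difference of CYP71A12 at 2 h became 0.96, so that count became 0. That setting took the median of all genes from -0.03 to -0.23 in RNAi-21 2 h minus 0.5 h, from -0.04 to -0.19 in RNAi-21 2 h minus 0 h, from 0.01 to -0.14 in the response difference at 2 h and from -0.02 to -0.12 in RNAi-21 minus WT at 2 h; 10 of 11 indole glucosinolate genes were then above 0 at 2 h. No genotype difference of a member changed sign under any alternative. The median of the regulator list at 2 h turned from -0.04 to 0.00 with median-ratio scaling. With a pseudocount of 0.1, 1 and 2 nitrile branch genes became 2-fold higher at 0 h and 2 h, and a filter of 5 FPKM removes FOX1 and CYP82C2 and leaves 1 of 6 at 0.5 h. Over all genes, 31, 155 and 106 were 2-fold higher and 73, 79 and 41 lower at 0, 0.5 and 2 h; a pseudocount of 0.1 gave 131, 379 and 326 higher and 231, 210 and 171 lower, a filter of 5 gave 20, 121 and 70 higher and 42, 48 and 21 lower, and equalised totals gave 37 higher and 50 lower at 0 h.

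In limma, the calls of CYP79B3 and CYP83B1 at 2 h held under every alternative and with any library left out. CYP79B2 at 2 h was lost with no filter (adjusted p = 0.054), median-ratio scaling (0.061), no variance trend (0.055) and no genotype term (0.17). With a library left out, the count of members that fell at 0.5 h was 0 to 1, the 1 being CYP71A12 without RNAi-21 at 0 h or at 0.5 h, and each such fit has 1 residual degree of freedom. A filter of 5 removes PAD3. No paired analysis was possible because each group holds 1 library, so replicate numbers pair nothing beyond the genotype term that the limma fit already has. Depth is unknown, and weak genes such as CYP82C2 and PAD3 are the least certain.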

Other observations

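CYP708A2, THAS1 and CYP705A12 were among the genes most like CYP71A12. Genes of the thalianol and marneral clusters, whose triterpenes are made mainly in roots, were therefore looked up, with those named included. The list was chosen after those values were seen, so it has no test. All 7 were listed, and 6, 7 and 7 were above 0 in RNAi-21 minus WT at 0, 0.5 and 2 h, where 48.6%, 45.5% and 47.1% of all genes were, with medians of 0.35, 1.11 and 0.80. Of the 7, 0, 5 and 1 were 2-fold higher, against 0.168%, 0.841% and 0.575% of all genes. CYP708A2, THAS1 and CYP705A12 were among the 5 at 0.5 h, so nothing is read from these counts and medians. CYP705A5, of the thalianol cluster, stood at an FPKM of 137, 104 and 113 in WT and 189, 205 and 196 in RNAi-21, with an r of 0.97 to CYP71A12. MRN1, the marneral synthase gene, stood at 3.47, 1.66 and 2.93 in WT and 2.77, 5.72 and 5.85 in RNAi-21. The acyltransferase gene AT5G47980 differed from the others in its course, at 3.15 to 3.85 in the 3 WT libraries, 3.95 and 3.84 in RNAi-21 at 0 and 0.5 h and 8.48 at 2 h. The 10 root markers had medians of 0.04, -0.13 and -0.15 at 0, 0.5 and 2 h, with 5, 3 and 3 above 0. PYK10 and RHD6 were above 0 at each time. The part of root content in these values was not tested.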
